A study of Homo sapiens with 29 samples.

Results

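The subject here is what changed in the lymphoma line DHL4 between 6 h and 24 h of exposure to R406. It was read from 3 arrays of DHL4 after 24 h of R406 and 3 arrays of DHL4 after 6 h of R406, 6 of the 29 arrays in the series, chosen by their sample titles. All 12165 genes with a named probe set were compared. DHL4 and DHL6 are cell lines grown from diffuse large B-cell lymphomas, tumours that arise from mature B lymphocytes. Both were exposed to R406 at 1 µM, with arrays at 2, 6, 24 and 48 h, or to the solvent DMSO, and total RNA was hybridised to an Affymetrix short-oligonucleotide array. The groups used here are DHL4 with R406 at 24 h and at 6 h, and DHL6 with R406 at 24 h and at 6 h, with 3 arrays each. Levels of DHL4 at 2 h and 48 h (3 arrays each) and in DMSO (2 arrays) are given only for orientation. All 29 arrays, however, set the estimate of the spread behind each SE and p-value and the choice of probe set. No DMSO array enters the difference between 24 h and 6 h, so a longer exposure and a longer time in culture cannot be told apart. Each line stands for 1 tumour, and no source used here says whether replicate arrays stand for separate cultures. The p-values therefore reflect only array-to-array spread, which may be technical.

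R406 inhibits SYK, the tyrosine kinase that docks on the phosphorylated tails of the B-cell receptor (CD79A and CD79B) and passes the signal to the adaptor BLNK, to BTK and phospholipase C gamma, to protein kinase C beta and to PI3 kinase. PI3 kinase activates AKT, which keeps FOXO transcription factors out of the nucleus and favours growth and metabolism. When the pathway is blocked in lymphoma cells that depend on it, FOXO factors can enter the nucleus, where they are known to induce genes of growth arrest and of receptor signalling. MYC, another factor downstream of growth signals, is known to drive nucleotide, polyamine and ribosome synthesis.

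Values are log2 levels per probe set as deposited, and changes are log2 differences between the means of the 24 h and 6 h arrays, ± SE of the fitted model, so a difference of 1 is a 2-fold change. A gene is called when limma's adjusted p over the 12165 genes lies below 0.05. The deposited values run from 1.99 to 13.5, and a log2 level below 4 is taken here as near the floor of the method, where changes are understated. Arrays of a group correlated at r between 0.978 and 0.996 across genes, with 0.990 to 0.991 among the DHL4 24 h arrays and 0.995 to 0.996 among the DHL4 6 h arrays, and 0 pairs held identical values. The number of arrays limits the precision.

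The DHL4 24 h arrays stood apart from the other DHL4 arrays as a group. Their r with the mean of the DHL4 DMSO arrays was 0.938 to 0.939, against 0.978 to 0.979 for the 6 h arrays, and it was 0.972 to 0.984 at 2 h and 0.983 to 0.988 at 48 h. Control probe sets of the array differed too. The 18S rRNA probe sets averaged 11.05 ± 0.19 at 24 h and 9.60 ± 0.18 at 6 h, and the 28S rRNA probe sets 8.0 ± 0.07 at 24 h and 7.08 ± 0.09 at 6 h (SD, n = 3 arrays each). The 24 h arrays of DHL6 were high as well, with 18S at 10.67 and 28S at 8.12, against 8.85 and 7.27 in its 6 h arrays. The bacterial hybridization controls averaged 8.57 at 24 h (8.34 to 8.85) and 7.72 at 6 h (7.30 to 8.06) in DHL4, without overlap. The difference between the 3' and 5' ACTB probe sets, a measure of RNA integrity, averaged 1.55 at 24 h and 1.36 at 6 h, with groups that overlapped. The same difference for GAPDH ran from 0.11 to 0.21 at 24 h and from -0.03 to 0.07 at 6 h, without overlap. The Alu repeat probe set ran from 13.45 to 13.49 at 24 h and from 13.29 to 13.35 at 6 h. The cre hybridization controls overlapped, at 12.05 to 12.31 at 24 h and 11.49 to 12.07 at 6 h. All 3 DHL4 24 h arrays lay above the 6 h arrays for both rRNAs. The rRNA values and the other controls without overlap move with the results below, and their part in them was not tested. The arrays carried their line's pattern: of 30 genes at least 16-fold apart between the lines in DMSO, 23 to 24 lay nearer the DHL4 level on each DHL4 24 h array and 27 on each DHL4 6 h array, against 1 to 2 on the DHL6 arrays.

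**Figure D1:**
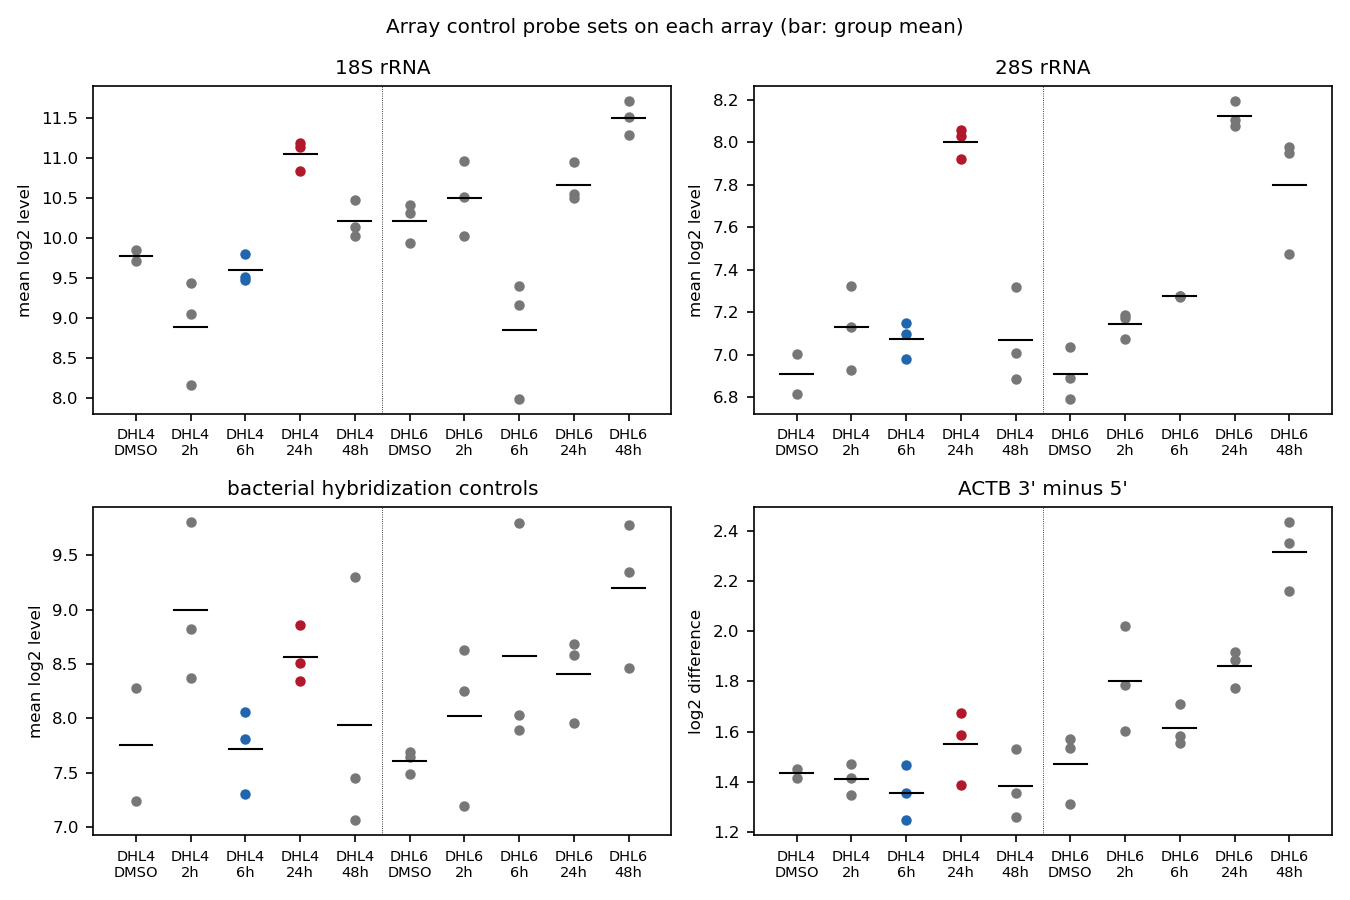
Control probe sets on each of the 29 arrays, by line and treatment (points: arrays; bars: group means; DHL4 24 h in red, DHL4 6 h in blue). The 18S and 28S rRNA probe sets lie higher on the DHL4 24 h arrays (means 11.05 and 8.0) than on the DHL4 6 h arrays (9.60 and 7.08).

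Markers of B cells were present. CD79A, CD79B, CD37, MS4A1 (CD20), BLK and IKZF1 stood above the floor in both groups, while the probe set used for PAX5 stood at 2.82 at 24 h and 2.76 at 6 h. All 7 measured T cell markers and all 6 measured monocyte and macrophage markers lay below a log2 level of 4 in both groups, and their summed log2 levels ranged over 19.7 to 20.3 at 24 h and 19.3 to 19.8 at 6 h for T cells, and over 17.4 to 17.8 at 24 h and 16.7 to 16.8 at 6 h for monocytes. Of 8 fibroblast and endothelial markers, 6 lay below 4 in both groups. The exceptions were PECAM1, an adhesion molecule that lymphoid cells also make, which rose by 3.48 ± 0.16, and DCN, decorin, which fell by 2.03 ± 0.16.

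Many genes changed between 6 h and 24 h, and more fell than rose. Of 12165 genes, 2712 (22.3%) were called, 1065 higher at 24 h (8.75%) and 1647 lower (13.5%). Each count of list members in DHL4 below is to be read against these shares. At least 2-fold changes among them numbered 308 higher (2.53%) and 563 lower (4.63%), and 47 rose and 41 fell by at least 4-fold. The split between higher and lower depends on scaling: with arrays centred on the median of genes with a mean level of 5 or more, chosen after seeing the data, 1799 were higher and 1286 lower. That is a share of 58.3% higher, against 39.3% as deposited, and it moves the median change of all genes to 0.19. Over those 3897 brighter genes the median change was -0.19, against 0.03 over all genes. Without replicate 3 of the 6 h group 2310 genes were called. Among the falls, 262 of the 563 of at least 2-fold started from a 6 h level of 7 or more, against 62 of the 308 rises. Of the rises, 76 had a 6 h level below 4, and 77 of the falls ended below 4 at 24 h.

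**Figure D2:**
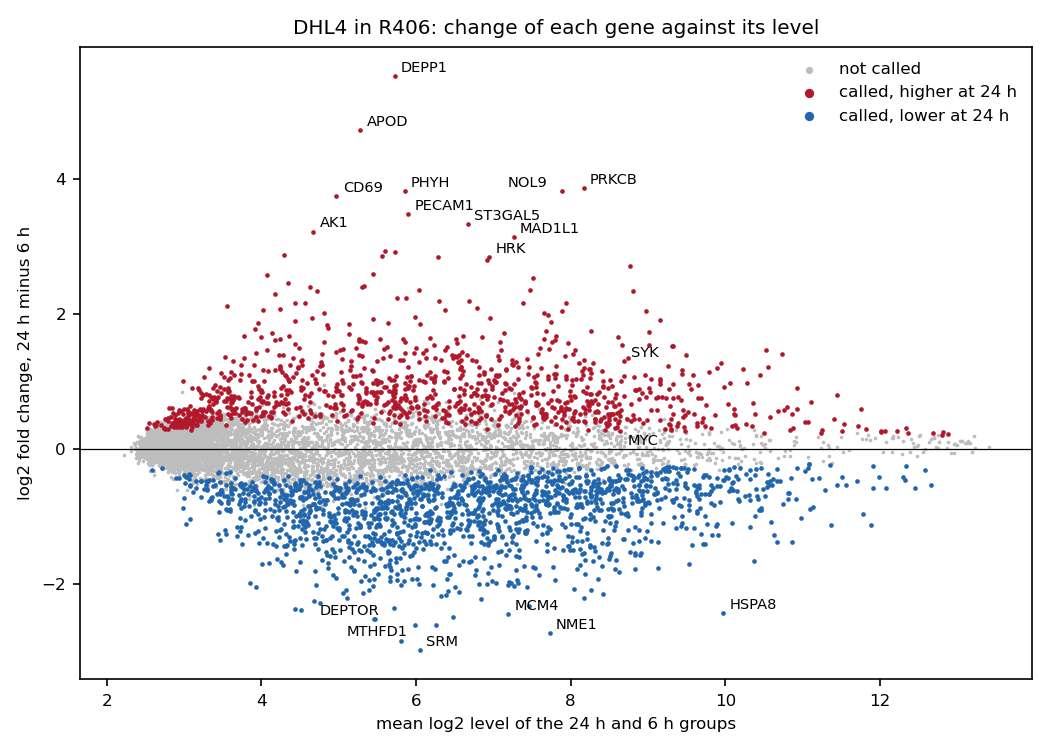
Change of each of 12165 genes in DHL4 (log2 fold change, 24 h minus 6 h, y axis) against its mean log2 level over both groups (x axis), with called genes in red (1065 higher at 24 h) and blue (1647 lower). DEPP1 rose most and SRM fell most, while MYC lay at -0.01.

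The genes that rose most were not a single pathway. DEPP1, a FOXO-induced gene of autophagy control, read 8.50, 8.62 and 8.34 at 24 h, against 2.88, 2.82 and 3.20 at 6 h. All 24 h arrays lay far above all 6 h arrays, which were at the floor, and the rise was 5.52 ± 0.29 (adjusted p = 6.37e-13), or 45.9-fold as measured. APOD, a lipid-binding apolipoprotein, read 7.17, 7.84 and 7.89 at 24 h, against 2.72, 2.89 and 3.15 at 6 h, a rise of 4.71 ± 0.27 that also began at the floor. PRKCB, the protein kinase C isoform that links the B-cell receptor to NF-kB, read 10.05, 10.06 and 10.18 at 24 h, against 6.22, 6.01 and 6.50 at 6 h. It began well above the floor and rose by 3.86 ± 0.23 (14.5-fold, adjusted p = 3.88e-12), and its other probe set rose by 4.68. NOL9, a kinase acting on RNA ends in ribosome synthesis, read 9.81, 9.78 and 9.80 at 24 h, against 6.14, 5.95 and 5.84 at 6 h. Its rise of 3.82 ± 0.16 stood beside a list of 39 ribosome biogenesis genes of which 27 fell and 0 rose.

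PHYH, the peroxisomal hydroxylase of phytanic acid (3.82 ± 0.30), CD69, an early activation antigen of lymphocytes (3.74 ± 0.20), PECAM1 (3.48 ± 0.16) and ST3GAL5, which makes the ganglioside GM3 (3.33 ± 0.25), also rose by more than 8-fold. CD69 read 6.37, 7.12 and 7.04 at 24 h, against 2.75, 3.17 and 3.38 at 6 h, so all 6 h arrays were near the floor and none of the 24 h arrays was. AK1, an adenylate kinase (3.21), MAD1L1, a spindle checkpoint protein (3.13), P4HA2, a collagen prolyl hydroxylase (2.93), PDE4B, a cyclic AMP phosphodiesterase (2.91), SMAD1 (2.86), RRBP1, a ribosome-binding protein of the endoplasmic reticulum (2.85), and CPTP, a ceramide-1-phosphate carrier (2.84), complete the 15 largest rises. All 15 had groups that did not overlap, as did 2658 of the 2712 called genes and 38.7% of all genes. MAD1L1 rose while 38 of 39 measured mitosis genes fell. One further PDE4B probe set (0.29) and one of RRBP1 (0.01), both near the floor, were not called.

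**Figure D3:**
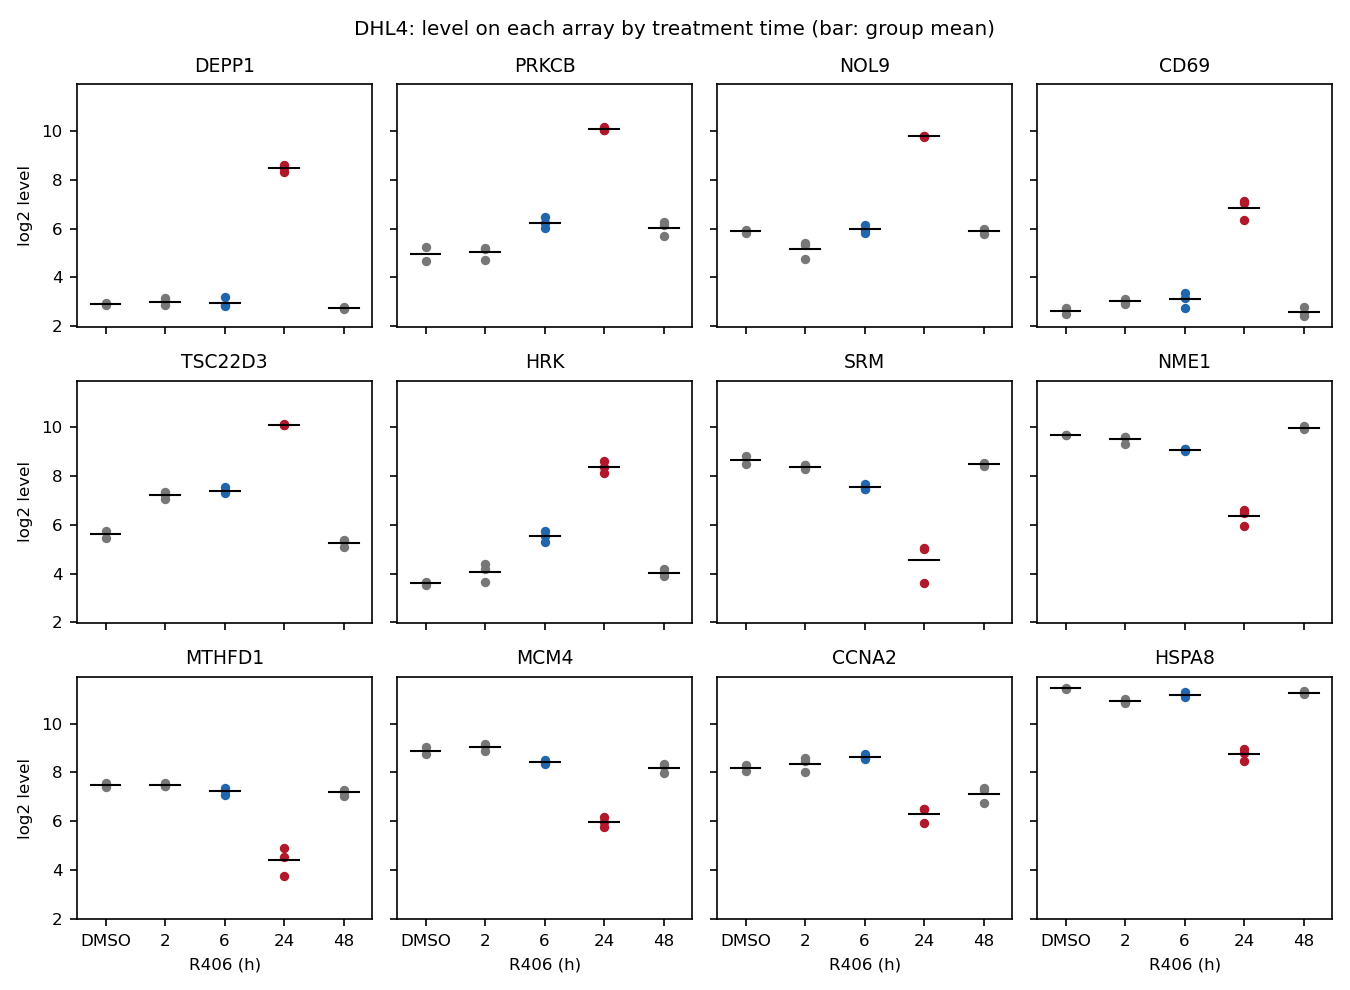
Log2 level of 12 genes on each DHL4 array by time in R406 (points: arrays; bars: group means; 24 h in red, 6 h in blue, other groups grey). In each panel the 24 h arrays lie apart from the 6 h arrays; DEPP1, for example, averaged 8.49 at 24 h, 2.96 at 6 h and 2.75 at 48 h.

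Of the transcripts of the B-cell receptor pathway, more rose than fell. Of 33 measured members, 17 were called higher and 2 lower (background 8.75% and 13.5%), with a list median of 0.36 against 0.03 over all genes. SYK, the target of the drug, read 9.37, 9.34 and 9.31 at 24 h, against 8.05, 8.08 and 8.01 at 6 h. The groups were far apart and tight, with a rise of 1.29 ± 0.17 (2.45-fold, adjusted p = 1.98e-06), and a further SYK probe set rose by 0.96. The receptor's signalling chains rose too: CD79B read 10.47, 10.49 and 10.52 at 24 h, against 9.28, 9.40 and 9.22 at 6 h (1.20 ± 0.10), and CD79A rose by 0.88 ± 0.13. Downstream, BLNK, the adaptor that SYK phosphorylates, rose by 1.10 ± 0.12, and FYN, a SRC family kinase, by 1.58 ± 0.21, while its 3 other probe sets, near the floor in both groups at -0.02 to 0.09, were not called. CD72, an inhibitory co-receptor, read 6.39, 6.65 and 6.54 at 24 h, against 4.08, 4.01 and 4.26 at 6 h, a rise of 2.41 ± 0.16.

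Further members, picked after their values were seen, follow in the order of the pathway. LYN, the SRC family kinase that starts the signal, rose by 0.76, BTK by 0.88, PLCG2, phospholipase C gamma 2, by 0.38, and BCL10, of the complex that activates NF-kB, by 0.67. The negative regulators INPP5D, the phosphatase SHIP1 (0.99), CBLB, a ubiquitin ligase (0.81), and FCGR2B, the inhibitory Fc receptor (0.70), rose as well. The members that fell were SH2B2, an adaptor (-0.73), and SLA, an adaptor that dampens antigen receptor signals (-0.58), though another SLA probe set was called the other way. Of 19 PI3 kinase and AKT pathway genes, 3 rose and 2 fell, against 8.75% and 13.5% of all genes. Their median of 0.07 changed sign with another scaling. The counts were 3 and 3 after array median centring and 6 and 1 after centring on brighter genes. TCL1A, an AKT co-activator, read 11.24, 11.34 and 11.20 at 24 h, against 9.85, 9.70 and 9.84 at 6 h (1.47 ± 0.13), and PIK3IP1, an inhibitor of PI3 kinase, rose by 1.59 ± 0.22, while AKT1 fell by 0.63 ± 0.16 near the floor.

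FOXO targets and genes of growth arrest also had more members higher than lower. Of 29 measured, 15 rose and 2 fell (median 0.55). The letters TGTTTAC, known as a FOXO motif, occurred on either strand in 3 of 25 of their promoters (12%) and in 2.13% of all promoters. Among all genes called higher the letters occurred in 22 of 869 promoters (2.53%). The list was named for FOXO targets, so its share describes the list and not the change. TSC22D3, the glucocorticoid-induced leucine zipper, read 10.10, 10.12 and 10.12 at 24 h, against 7.30, 7.39 and 7.55 at 6 h. Every 24 h array exceeded every 6 h array by more than 2.5 log2 units, a rise of 2.70 ± 0.18 (adjusted p = 2.46e-11). RAG1, the recombinase that FOXO1 controls in B-cell precursors, rose by 2.05 ± 0.19, and RAG2, named after its value was seen, by 0.58 near the floor. TRIB2, a pseudokinase (1.95), KLHL24 (1.31), CDKN1B, the CDK inhibitor p27 (1.20 ± 0.26), and FOXO1 itself (1.11 ± 0.12) rose, and GADD45A, a stress and growth-arrest gene, rose by 1.09 ± 0.23 to a mean of 11.00 at 24 h, against 9.90 at 6 h. TXNIP, a brake on glucose uptake, read 7.95, 7.73 and 7.99 at 24 h, against 7.20, 7.10 and 7.43 at 6 h, a rise of 0.65 ± 0.16 with groups that did not overlap. SOD2, a mitochondrial superoxide dismutase, fell by 1.35 ± 0.19, while its other 2 probe sets, near the floor in both groups at 0.05 and 0.03, were not called, and BNIP3 fell by 1.09 ± 0.20. BCL6 (0.27, adjusted p = 0.124), KLF2 (0.35) and BCL2L11, which encodes BIM (-0.30), were not called. BCL6 passed the threshold after quantile normalization, at 0.44, and after centring on brighter genes, at 0.43. It also passed with array weights and without replicate 3 of the DHL6 6 h group. KLF2 passed after centring on brighter genes, at 0.51.

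Among genes of cell death, the activators of the BCL2 family did not move one way. HRK, which blocks survival proteins of that family, read 8.38, 8.11 and 8.62 at 24 h, against 5.28, 5.75 and 5.56 at 6 h. The groups lay more than 2 log2 units apart, and the rise was 2.84 ± 0.23 (7.17-fold, adjusted p = 5.6e-10), and 2 other HRK probe sets, at 0.23 and 0.53, lay near the floor in both groups and were not called. PMAIP1, or NOXA (0.88), BBC3, or PUMA (0.74, near the floor), and BNIP3L (1.01) rose, while BID fell by 1.05 ± 0.16. In all 4 of 12 rose and 2 fell, against 8.75% and 13.5% of all genes, so the falls were near that share. The median of -0.05 changed sign with scaling. Of 10 survival genes, CFLAR, an inhibitor of caspase 8 (0.97, with 7 of 10 further probe sets not called), and the kinases PIM2 (0.88) and PIM1 (0.65) rose and 0 fell. Among 15 caspases and death receptors, TRADD rose (0.69) and CASP2 fell (-0.82), no more than the shares of all genes (8.75% higher, 13.5% lower). Of 17 p53 targets, GADD45A, BBC3 and XPC rose and DDB2 fell (-1.21), against the same shares.

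Among genes of B-cell surface identity and antigen presentation, more rose than fell. Of 18 B-cell identity genes, 6 rose and 1 fell. CD37, a tetraspanin of B cells, read 9.99, 10.22 and 10.00 at 24 h, against 8.52, 8.58 and 8.56 at 6 h, a rise of 1.52 ± 0.09. The member that fell was MS4A1 (-0.30), the target of rituximab. Of 17 MHC class II genes, which serve antigen presentation to helper T cells, 9 rose and 0 fell (median 0.59). HLA-DMA, which loads peptides, read 8.90, 9.10 and 8.94 at 24 h, against 7.91, 7.89 and 7.69 at 6 h (1.15 ± 0.11), HLA-DMB rose by 1.04 and HLA-DRB1 by 1.00. CIITA, the activator of these genes, rose by 0.85 ± 0.17 near the floor, and its 2 other probe sets, at 0.21 and 0.02 and also near the floor, were not called. After median centring of the arrays 1 class II gene was called lower.

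Of 16 class I and peptide-loading genes, 6 rose and 0 fell. HLA-B read 8.79, 8.68 and 8.62 at 24 h, against 6.69, 6.69 and 6.77 at 6 h (1.98 ± 0.11), and HLA-C rose by 1.87 ± 0.14, HLA-E by 1.26 and B2M, their common light chain, by 0.29. Class I genes resemble one another in sequence, as class II genes do among themselves, so probe sets within a class may share signal. Of 13 further HLA-C probe sets 4 were called higher and 9 were not called. Of 36 interferon response genes, 9 rose and 0 fell, against 8.75% and 13.5% of all genes. They included SP110 (1.71 ± 0.15) and SP100 (1.58 ± 0.13), nuclear body proteins, OAS1, an antiviral synthetase (1.32, another probe set at 0.35 not called), and IRF7 (1.12). The median of that list was 0.14, and most of its members lay near the floor, where the median level of the list was 3.27 at 24 h and 3.09 at 6 h.

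Among germinal centre genes and genes of cell positioning, more rose than fell. Of 20 germinal centre genes, 9 rose and 2 fell, against 8.75% and 13.5% of all genes. FOXP1 (1.64 ± 0.24), SPIB (1.61 ± 0.16), both B-cell transcription factors, and LMO2, a transcription cofactor (1.61 ± 0.17), rose, as did ITPKB, an inositol phosphate kinase (1.20), and BACH2, a repressor of plasma cell fate (0.51 ± 0.15). GNA13, which confines germinal centre B cells, fell by 1.34 ± 0.29, and EZH2, a histone methyltransferase picked after its value was seen, by 0.46 ± 0.10. Of 15 plasma cell genes, 3 rose and 2 fell, against 8.75% and 13.5% of all genes. XBP1 (1.30), CD27 (1.27) and MZB1 (0.41) rose and TNFRSF17, or BCMA (-1.53), and FKBP11 (-0.58) fell. The counts ran from 2 higher and 3 lower to 4 higher and 1 lower under other scalings, and MZB1 and FKBP11 lost their calls when most single arrays of the comparison were left out.

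Of 22 homing and adhesion genes, 8 rose and 1 fell. CXCR4, the receptor of CXCL12, read 11.53, 11.39 and 11.39 at 24 h, against 9.95, 10.09 and 10.04 at 6 h, a rise of 1.41 ± 0.12 (adjusted p = 1.48e-09) in a gene that was already high at 6 h. CXCR5, the follicle homing receptor (1.20), and RGS1 (1.51) and RGS16 (1.72), which shorten chemokine signals, rose. ITGA4, an integrin chain, fell by 0.85 ± 0.23. Of 24 NF-kB subunits and targets, 7 rose and 1 fell. LTB, lymphotoxin beta, read 9.93, 10.09 and 9.97 at 24 h, against 7.93, 7.89 and 8.06 at 6 h (2.03 ± 0.10), and NFKBIA (1.12) and TNFAIP3 (1.15), the feedback inhibitors, rose with CD40 (1.00) and CD83 (0.84). The other TNFAIP3 probe set, near the floor, was not called. PLEK, pleckstrin, was the member that fell (-0.73), named after its value was seen. The subunits NFKB1 (-0.17), RELA (-0.10) and REL (-0.27) were not called.

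Of 20 genes of TGF-beta and BMP signalling, 8 rose and 0 fell, with a median of 0.22. ID3, which blocks E-protein transcription factors, read 9.91, 10.00 and 10.03 at 24 h, against 7.73, 7.77 and 7.43 at 6 h (2.34 ± 0.19). All 24 h arrays exceeded all 6 h arrays by more than 2 log2 units. ID2 rose by 2.19 ± 0.25, SKIL, a SMAD repressor, by 1.38, and SMAD1, the mediator of BMP signals, read 5.56, 5.83 and 5.77 at 24 h, against 3.01, 2.76 and 2.81 at 6 h, with the 6 h arrays at the floor. Of 35 lysosome and autophagy genes, 15 rose and 1, ATG5, fell (-0.55, named after its value was seen). The proteases CTSH, cathepsin H (2.00 ± 0.10), CTSB, cathepsin B (1.42), and TPP1 (1.40) rose most, with the lysosomal cofactor PSAP (1.19) and the autophagosome protein MAP1LC3B (1.18). Of 9 aryl hydrocarbon receptor targets, CYP1A1, a xenobiotic oxidase, read 4.66, 6.03 and 5.38 at 24 h, against 2.88, 2.61 and 2.88 at 6 h (2.57 ± 0.26), and TIPARP, a feedback inhibitor of the receptor, rose by 1.46 ± 0.18. The 7 others were not called.

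On the falling side, SRM, spermidine synthase, changed most. It read 3.60, 5.02 and 5.06 at 24 h, against 7.49, 7.49 and 7.66 at 6 h. One 24 h array was near the floor and the others were above it, and all lay below the 6 h arrays, with a change of -2.98 ± 0.23 (adjusted p = 2.29e-10). MTHFD1, a folate enzyme of purine and thymidylate synthesis, read 4.90, 4.52 and 3.75 at 24 h, against 7.08, 7.35 and 7.25 at 6 h (-2.84 ± 0.17), and NME1, a nucleoside diphosphate kinase, read 5.97, 6.63 and 6.49 at 24 h, against 9.12, 9.05 and 9.10 at 6 h (-2.73 ± 0.14, 6.62-fold lower at 24 h). HSPA8, the constitutive HSC70 chaperone, was among the brightest transcripts and read 8.97, 8.81 and 8.48 at 24 h, against 11.09, 11.31 and 11.17 at 6 h (-2.44 ± 0.11), and its other 2 probe sets fell by 2.70 and 2.95.

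The other large falls belonged mostly to genes of chromosome duplication and segregation or of the nuclear pore. They were DSCC1, a clamp loader subunit (-2.60), SMC2, a condensin (-2.60), OIP5, a centromere protein (-2.52), RNASEH2A (-2.49), MCM4 (-2.45), CCNA2 (-2.33), SPC25, a kinetochore protein (-2.28), and the pore proteins NDC1 (-2.37) and SEH1L (-2.35). DEPTOR, an inhibitor of mTOR, read 4.38, 4.43 and 3.79 at 24 h, against 6.70, 6.66 and 6.81 at 6 h (-2.52 ± 0.13), and HTR3A, a serotonin-gated channel subunit, ended at the floor (-2.39). All 15 had groups that did not overlap, which also held for 2658 of the 2712 called genes and 38.7% of all genes. The other DSCC1 probe set, near the floor in both groups at 0.20, was not called.

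DNA replication genes fell almost without exception. Of 43 measured, 38 fell and 0 rose (median -1.33, background 13.5%), and the 5 not called, RFC1, RPA2, PRIM2, E2F1 and ORC3, lay between -0.47 and -0.25. The subunits of the MCM helicase that opens origins led. MCM4 read 6.15, 5.76 and 5.97 at 24 h, against 8.41, 8.33 and 8.50 at 6 h (-2.45 ± 0.16, adjusted p = 2.7e-11), and MCM6 read 7.25, 7.41 and 7.36 at 24 h, against 9.56, 9.49 and 9.43 at 6 h (-2.15 ± 0.13). MCM2 (-2.05) and MCM3 (-1.98) fell alongside, with RFC5, a clamp loader subunit (-2.02), and GINS1, of the replicative helicase complex (-2.01). No 24 h array of these genes reached a 6 h array.

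The promoters of the 2 MCM genes below are shown because the replication genes moved together and their promoters are known as targets of E2F factors. They are the 250 bases before the annotated start, 5′ to 3′, from RefSeq on GRCh38.p14, with matches to the E2F letters TTCCCGC or TTGGCGC, searched on both strands, in capitals.
MCM6 (chr2:135876444-135876693, minus strand): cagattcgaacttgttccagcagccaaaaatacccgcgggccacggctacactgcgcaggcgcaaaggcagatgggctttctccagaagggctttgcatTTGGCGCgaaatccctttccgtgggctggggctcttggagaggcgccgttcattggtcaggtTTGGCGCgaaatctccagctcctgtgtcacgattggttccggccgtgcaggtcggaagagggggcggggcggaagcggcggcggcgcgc
MCM3 (chr6:52284743-52284992, minus strand): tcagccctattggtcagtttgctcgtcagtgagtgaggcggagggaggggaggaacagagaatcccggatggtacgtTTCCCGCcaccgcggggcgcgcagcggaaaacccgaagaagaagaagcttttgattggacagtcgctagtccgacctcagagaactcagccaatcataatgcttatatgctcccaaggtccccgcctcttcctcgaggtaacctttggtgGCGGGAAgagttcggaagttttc
These letters occurred in 18 of 38 replication promoters (47.4%), against 11.5% of the 9711 promoters of tested genes that had a sequence. Among all genes called lower they occurred in 243 of 1417 promoters (17.1%). The list was chosen by function, so its share describes the list and not the change. A match is a string of letters, not a measured site.

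Mitosis genes fell with them. In RNA from a whole culture, fewer cells in a cycle phase and less RNA per cell cannot be told apart. Of 39 measured, 38 fell and 0 rose (median -1.52), with only CDC25B, at -0.24, not called. PLK1, a mitotic kinase, read 5.43, 5.34 and 5.67 at 24 h, against 7.51, 7.49 and 7.60 at 6 h (-2.05 ± 0.25), and MKI67, the proliferation antigen Ki-67, read 6.36, 6.36 and 5.97 at 24 h, against 8.18, 8.33 and 8.13 at 6 h (-1.99 ± 0.11, 3.96-fold lower at 24 h, adjusted p = 8.05e-13). CCNA2, cyclin A2, read 5.91, 6.49 and 6.51 at 24 h, against 8.75, 8.55 and 8.59 at 6 h (-2.33 ± 0.22). MAD2L1 of the spindle checkpoint (-2.23), BIRC5, survivin (-2.07), and KIF20A, a kinesin of cell division (-1.95), fell as well.

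Their promoters are shown for the element known as CHR, with its letters TTTGAA, again searched on both strands, in capitals, over the same 250 bases.
PLK1 (chr16:23678639-23678888, plus strand): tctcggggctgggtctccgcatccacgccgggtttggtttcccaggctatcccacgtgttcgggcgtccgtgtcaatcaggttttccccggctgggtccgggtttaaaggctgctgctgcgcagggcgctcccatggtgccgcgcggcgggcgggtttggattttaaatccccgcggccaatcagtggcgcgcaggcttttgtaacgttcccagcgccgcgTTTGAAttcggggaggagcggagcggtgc
MKI67 (chr10:128126424-128126673, minus strand): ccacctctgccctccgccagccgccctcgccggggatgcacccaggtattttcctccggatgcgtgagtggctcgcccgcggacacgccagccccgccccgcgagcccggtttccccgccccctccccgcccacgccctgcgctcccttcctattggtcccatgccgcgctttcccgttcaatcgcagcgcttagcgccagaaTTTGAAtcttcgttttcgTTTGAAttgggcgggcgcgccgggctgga
The CHR letters occurred in 17 of 33 mitosis promoters (51.5%) and 9.68% of all promoters, and the letters CCAATCA in 10 of the 33 (30.3%) and 8.74% of all. Among all genes called lower the shares were 11.1% for CHR and 12.4% for CCAATCA. The mitosis shares again describe a list chosen by function. Replication promoters held the CHR letters in 0 of 38.

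Most DNA repair genes fell too. Of 22 repair genes, 17 fell and 1 rose (median -1.03). CHEK1, the checkpoint kinase (-2.09 ± 0.34), FANCI of the Fanconi pathway (-1.83) and BLM, a helicase (-1.67), fell most, and ATM, the double-strand break kinase, named after its value was seen, rose by 0.87 ± 0.16. Among 17 G1 cyclins, CDKs and inhibitors, 4 fell and 3 rose, whereas 2 fell and 4 rose after centring on brighter genes. CDK4, the kinase of D-type cyclins, read 6.13, 6.29 and 5.80 at 24 h, against 7.74, 7.63 and 7.70 at 6 h (-1.62 ± 0.11), CDKN3, a phosphatase of CDKs, fell by 1.76 ± 0.13, and CDKN2A and CDK6 changed by less (-0.41 and -0.47) and lost their calls with that centring (adjusted p = 0.13 for CDKN2A and 0.137 for CDK6). CDKN1B, RBL2, a pocket protein (0.55), and E2F5, named after its value was seen (0.36), rose. CCND2 (0.29) was not called. Of 15 replication-dependent histone genes, H2BC5 (1.01) and H2BC12 (0.66) rose and 0 fell, against 8.75% and 13.5% of all genes. Both lost their calls when certain single arrays were left out. Histone genes resemble one another closely, so their probe sets may share signal.

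Most enzymes that make nucleotides fell. Of 22 purine and pyrimidine genes, 20 fell and 0 rose (median -1.26). Besides NME1, the purine enzymes PAICS, which read 7.05, 7.04 and 7.12 at 24 h, against 9.31, 9.24 and 9.29 at 6 h (-2.21 ± 0.15), PFAS (-2.21) and ATIC (-1.72) fell, with PRPS2, which makes the ribose donor (-1.70), and CTPS1, which makes CTP (-1.70). One of 2 further PAICS probe sets, near the floor in both groups at 0.15, was not called. In polyamine metabolism 5 of 12 fell and 1 rose, with a median of -0.15 that changed sign with another scaling. ODC1, the entry enzyme, read 8.80, 8.76 and 8.75 at 24 h, against 10.01, 9.89 and 9.95 at 6 h (-1.18 ± 0.14), and AMD1 (-2.02), SMS, spermine synthase (-1.42), and AZIN1, an antizyme inhibitor (-0.86), fell beside SRM. SAT1, which marks polyamines for export and breakdown, read 9.49, 9.40 and 9.42 at 24 h, against 7.87, 7.95 and 7.88 at 6 h, a rise of 1.54 ± 0.11. Of 11 genes of serine, folate, methionine and asparagine metabolism, 7 fell and 0 rose, led after MTHFD1 by AHCY (-1.78) and ASNS, asparagine synthetase (-1.01).

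Most ribosome synthesis genes fell, and MYC was not called. Of 39 ribosome biogenesis genes, 27 fell and 0 rose (median -0.80). WDR12 read 4.78, 4.96 and 4.72 at 24 h, against 6.71, 6.55 and 6.78 at 6 h (-1.86 ± 0.17), and NPM3 (-1.68), NOP16 (-1.67), DDX21, a nucleolar helicase (-1.57), DKC1, the pseudouridine synthase dyskerin (-1.42), and BYSL (-1.41) fell. MYC read 8.63, 8.61 and 8.71 at 24 h, against 8.68, 8.59 and 8.72 at 6 h. The groups overlapped, and the change of -0.01 ± 0.07 was not called (adjusted p = 0.951), although levels at both times lay below those in DMSO (9.99) and at 48 h (10.18). MXI1, a repressor that competes with MYC for its partner, rose by 1.05 ± 0.14, with MXD4 (0.49) and MLXIP (0.62), and MGA was called lower (-0.78 ± 0.27). The call of MGA was lost without any 1 of the 6 arrays compared (adjusted p = 0.0505 to 0.0992), that of MLXIP after array median centring and without 4 of the 6 arrays in turn, and that of MXD4 without 2 of them in turn. Of 25 RNA polymerase I and III genes, 7 fell and 0 rose, among them POLR3B (-1.23), POLR3E (-1.16) and POLR1E (-1.15).

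The translation machinery split by part. Of 33 initiation and elongation factors, 15 fell and 3 rose. EIF4A1, the helicase of cap-dependent initiation, read 9.17, 9.25 and 9.14 at 24 h, against 10.47, 10.42 and 10.50 at 6 h (-1.28 ± 0.09), and EIF5A (-1.56), EIF4E, the cap-binding protein (-1.35), and its inhibitor EIF4EBP1 (-1.41) fell. Of 19 cytosolic aminoacyl-tRNA synthetase genes, 7 fell and 3 rose, with EPRS1 at -0.81 and CARS1 at 1.03. Of 29 cytosolic ribosomal protein genes, 0 fell and 5 rose by small amounts, such as RPS9 (0.34 ± 0.07). That median, 0.12, stayed above 0 under 3 other scalings, under which 2 to 13 were called higher. Ribosomal protein genes have near-identical pseudogenes, so their probe sets may share signal. Of 40 mitochondrial ribosomal protein genes, by contrast, 29 fell and 0 rose (median -0.88), with MRPL4 at -1.42 and MRPL16 at -1.30.

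Most other mitochondrial genes measured fell as well. Of 23 import and chaperone genes, 17 fell and 0 rose. HSPE1, the co-chaperonin HSP10, read 7.41, 7.06 and 7.28 at 24 h, against 9.06, 9.20 and 9.06 at 6 h (-1.86 ± 0.12), and GRPEL1 (-1.77), PHB1, prohibitin (-1.74), and TRAP1 (-1.57) fell. Of 16 citric acid cycle genes, 13 fell and 0 rose, with DLST at -1.91 and IDH2 at -1.40. Of 35 oxidative phosphorylation genes, 25 fell and 0 rose (median -0.62), led by ATP5MC1 of the ATP synthase (-1.76 ± 0.15) and NDUFS8 (-1.25) and NDUFS1 (-1.24) of complex I, with CYCS, cytochrome c, at -1.16. Of 20 glycolysis genes, 9 fell and PFKP, named after its value was seen, rose (0.38). LDHA, lactate dehydrogenase A, read 9.54, 9.56 and 9.53 at 24 h, against 11.27, 11.11 and 11.24 at 6 h (-1.66 ± 0.11, 3.16-fold lower at 24 h), and GPI fell by 2.02 ± 0.14. PKM fell by 1.12 ± 0.17 on its brightest probe set, and 2 others, at -0.05 and 0.12, lay near the floor in both groups and were not called.

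Of 20 cholesterol genes, 9 fell and 0 rose (median -0.23), but 4 were called higher and 7 lower after quantile normalization, and 4 higher and 6 lower after centring on brighter genes. HMGCS1, which makes the precursor of mevalonate, read 5.84, 5.68 and 5.69 at 24 h, against 6.67, 6.71 and 6.68 at 6 h (-0.95 ± 0.14, adjusted p = 8.48e-06), with groups that did not overlap. ACAT2 (-1.36), EBP (-1.16) and FDPS, farnesyl diphosphate synthase (-0.99), also fell. SQLE, squalene epoxidase, changed by -0.31 ± 0.11 (adjusted p = 0.0446), and another of its probe sets was called the other way, at 0.42. Of 14 fatty acid genes, 3 fell and 1 rose, near the shares of all genes (13.5% lower, 8.75% higher), and 2 fell and 2 rose after centring on brighter genes. The third fall, ACSL1, an acyl-CoA synthetase (-0.60), lost its call when any 1 of the 6 arrays compared was left out, while the others named were SCD, stearoyl-CoA desaturase, at -1.15 ± 0.13, ACLY, ATP citrate lyase, at -0.81, and LPIN1, which rose by 0.59.

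Most genes on the lists for protein folding, degradation and splicing fell. Of 17 cytosolic heat shock genes, 10 fell and 0 rose (median -0.87). HSP90AB1, the constitutive HSP90, read 7.80, 7.76 and 7.75 at 24 h, against 9.43, 9.39 and 9.43 at 6 h (-1.65 ± 0.09), and the co-chaperones DNAJA1 (-1.50) and STIP1 (-1.37) fell. Of 14 subunits of the CCT chaperonin and of prefoldin, 10 fell and PFDN5, named after its value was seen, rose (0.68). TCP1 read 8.03, 8.0 and 8.09 at 24 h, against 9.62, 9.64 and 9.59 at 6 h (-1.57 ± 0.10), and CCT5 fell by 1.32 ± 0.10. Of 31 proteasome genes, 26 fell and PSME1, an interferon-inducible activator named after its value was seen, rose (0.53). PSMC3, an ATPase of the cap, fell by 1.41 ± 0.19 and PSMD14, a deubiquitinase of the lid, by 0.96 ± 0.09.

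Of 37 splicing factors, 29 fell and 4 rose. SNRPD1, a core spliceosome protein, read 8.83, 8.92 and 8.82 at 24 h, against 9.89, 10.09 and 10.01 at 6 h (-1.14 ± 0.08), and SF3B3 fell by 1.07 ± 0.13. The risers, named after their values were seen, were SRSF6 (0.56), SRSF9 (0.48), SRSF5 (0.43) and SF3B1 (0.29). Of 25 nuclear transport genes, 20 fell and 0 rose (median -1.03), with the exporter CSE1L (-1.74 ± 0.12), the importin IPO5 (-1.38) and the pore protein NUP205 (-1.41). RANBP1 fell by 1.74 ± 0.16, while its 2 other probe sets, near the floor in both groups at 0.07 and -0.32, were not called. Chaperones of the endoplasmic reticulum and the unfolded protein response went both ways, with 6 of 22 higher and 4 lower, and 4 higher after array median centring. The shares over all genes were 8.75% higher and 13.5% lower. HERPUD1 rose by 1.03 ± 0.11 and CANX, calnexin, fell by 0.56 ± 0.10.

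Most genes on the amino acid stress list were not called, and its median was 0.12. Of 14, DDIT3, or CHOP (1.40 ± 0.19), DDIT4, an mTOR inhibitor (1.14 ± 0.16), and CEBPB (0.97) rose, and 0 fell. The shares over all genes were 8.75% higher and 13.5% lower. Asparagine synthetase, ASNS, which was counted on another list, fell (-1.01). The amino acid transporters SLC38A2 (1.22), SLC38A1 (0.70) and SLC7A7 (1.24) rose and SLC43A3 (-1.44), SLC1A4 (-1.06) and SLC7A1 (-0.66) fell, of 14. Of 15 NRF2 targets, 5 fell, among them TXN, thioredoxin (-1.20 ± 0.13), and TXNRD1, its reductase (-1.11), and ABCC1 rose (0.80). After quantile normalization and after centring on brighter genes 3 of them were lower, and after array median centring 6. ABCC1 lost its call without replicate 3 of the 6 h group (adjusted p = 0.0549). Of 30 immediate early and ERK feedback genes, 4 rose and 1 fell, against 8.75% and 13.5% of all genes, and the counts were 2 and 1 after array median centring and 5 and 0 after centring on brighter genes. NR4A1, DUSP1, ZFP36 and SPRED2, which make up the rest of these calls, each lost the call under at least 1 alternative. JUND rose by 1.09 ± 0.14, while its other 2 probe sets, near the floor in both groups at 0.12 and 0.15, were not called, and EGR1 read 3.06, 3.16 and 3.25 at 24 h, against 2.99, 3.16 and 3.18 at 6 h, at the floor in both groups. Of 37 regulators of small GTPases and actin, 12 rose and 12 fell, a balance that depends on scaling, with 6 higher and 13 lower after array median centring and 13 higher and 6 lower after centring on brighter genes. EZR, ezrin (0.95), and KANK2 (0.98) rose, and LCP1, the leukocyte actin bundler plastin (-1.40 ± 0.15), and LIMA1 (-1.03) fell.

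**Figure D4:**
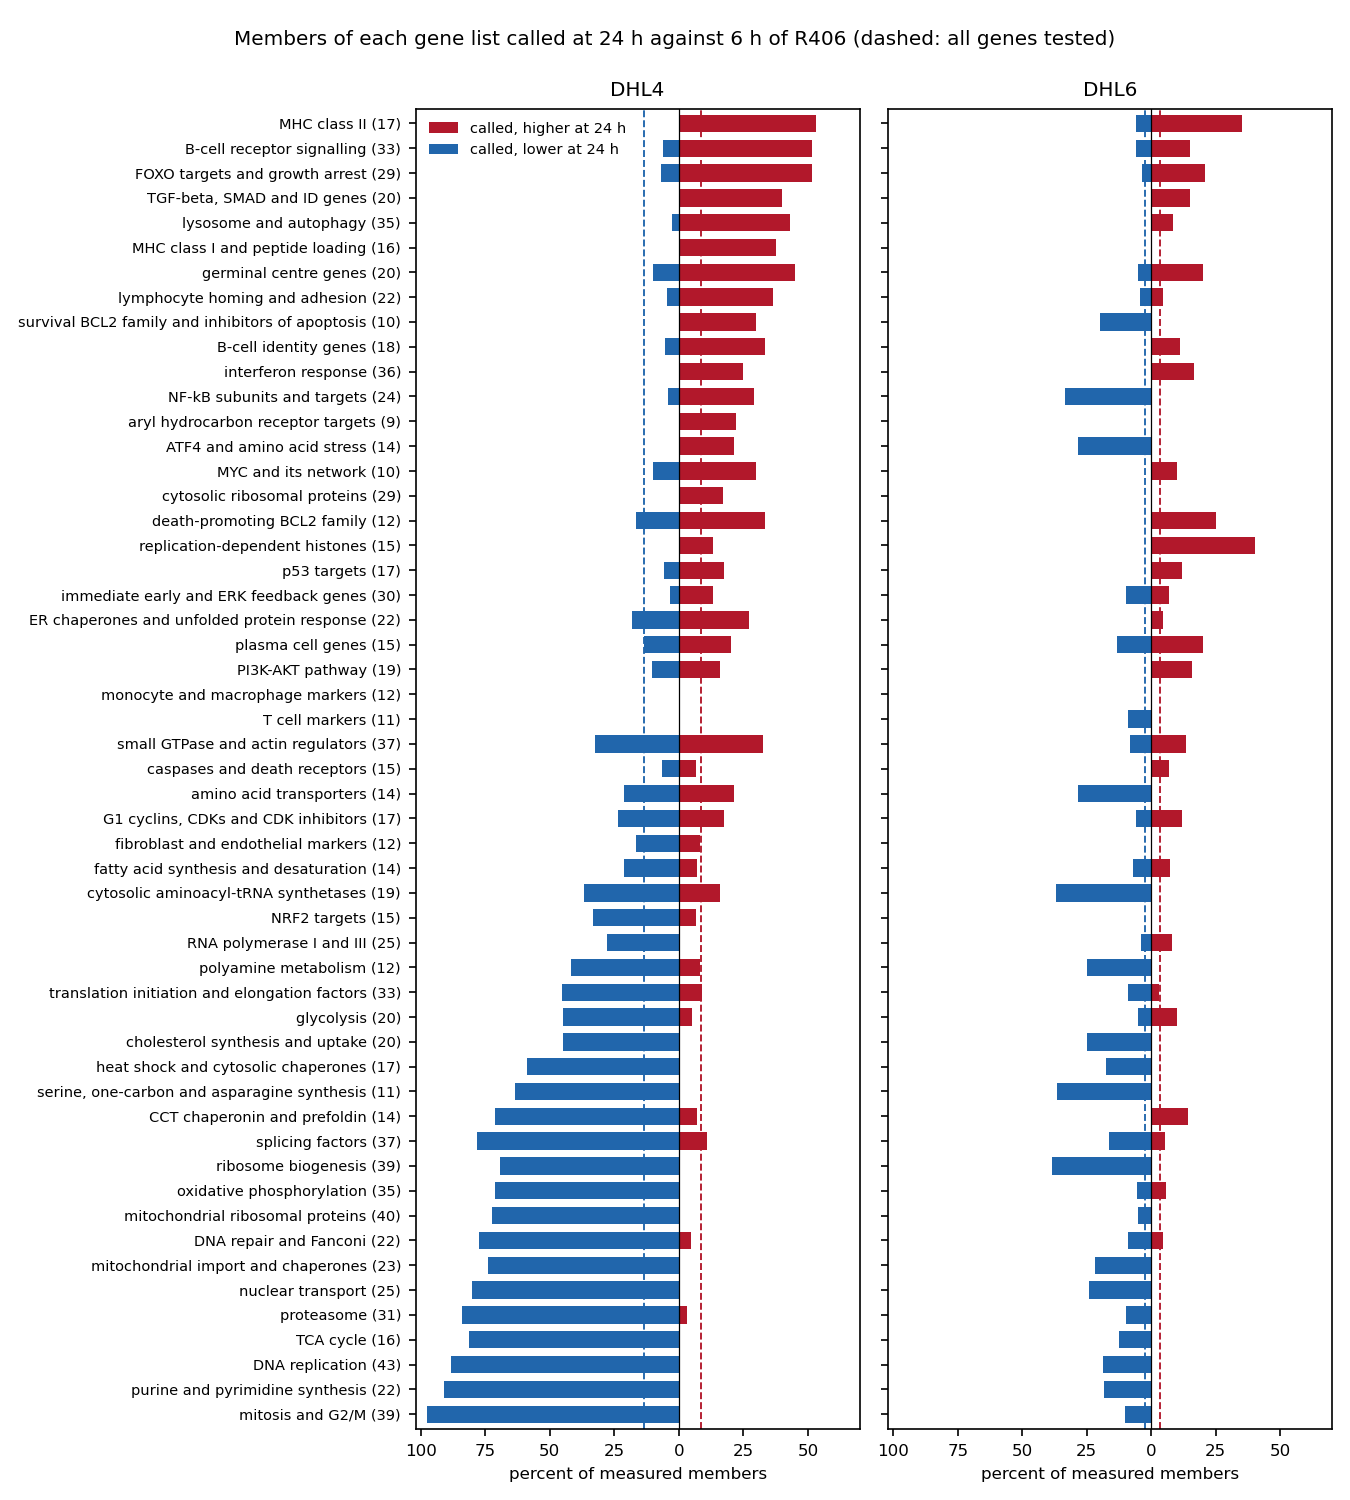
Share of the measured members (number in brackets) of each of 53 gene lists called higher (red) or lower (blue) at 24 h against 6 h of R406, in DHL4 (left) and DHL6 (right), with dashed lines at the share over all 12165 genes. In DHL4, 38 of 39 mitosis genes and 38 of 43 replication genes were lower, and 17 of 33 receptor signalling genes were higher.

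Most of the larger differences at 24 h were smaller at 48 h. Of the 308 genes that were at least 2-fold higher at 24 h, 267 (86.7%) had a 48 h mean nearer the 6 h mean than the 24 h mean, and so had 423 of the 563 that were at least 2-fold lower (75.1%). The median over the rises was 1.31 at 24 h minus 6 h, and 0.02 at 48 h minus 6 h. Over the falls it was -1.33 at 24 h and -0.23 at 48 h. In DHL6 the same counts were 15 of 68 rises (22.1%) and 3 of 30 falls (10%). These genes were chosen on the 24 h and 6 h arrays, so the counts are a description with no test. The rRNA probe sets differed at 48 h as well. In DHL4, 18S averaged 10.21 and 28S 7.07 at 48 h, against 11.05 and 8.0 at 24 h. In DHL6 they averaged 11.51 and 7.80 at 48 h, against 10.67 and 8.12 at 24 h. The part of the rRNA values in these counts was not tested. DEPP1 shows the course, with means of 2.91 in DMSO, 3.01 at 2 h, 2.96 at 6 h, 8.49 at 24 h and 2.75 at 48 h. SRM stood at 8.66 in DMSO, 8.39 at 2 h, 7.54 at 6 h, 4.56 at 24 h and 8.49 at 48 h. The mitosis gene PLK1 stayed near its 24 h level, at 7.26 in DMSO, 7.61 at 2 h, 7.53 at 6 h, 5.48 at 24 h and 5.57 at 48 h. HLA-B differed in another way, at 7.64 in DMSO, 7.63 at 2 h, 6.72 at 6 h, 8.70 at 24 h and 8.80 at 48 h, so that its lowest level was the one at 6 h.

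DHL6 changed less between the same times. Limma called 709 genes there (5.83%), 401 higher (3.3%) and 308 lower (2.53%), and 68 rose (0.559%) and 30 fell (0.247%) by at least 2-fold. Genes called in both lines numbered 451, which is 16.6% of those called in DHL4 and 63.6% of those called in DHL6. Of them 416 had the same sign and 35 opposite signs. The changes correlated across genes at r = 0.401, and at 0.543 over the 3897 genes with a mean level of 5 or more. Genes are not independent, and the 24 h arrays of both lines shared high rRNA probe sets. PRKCB rose in both lines, by 3.86 in DHL4 and by 3.21 in DHL6, and so did SMAD1 (2.86 and 2.26), CPTP (2.84 and 2.32), ID3 (2.34 and 1.55) and SYK (1.29 and 1.07). For these 5 genes the difference between the lines was not called, which does not show that they changed alike; it was 0.65 ± 0.32 for PRKCB and 0.79 ± 0.26 for ID3.

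**Figure D5:**
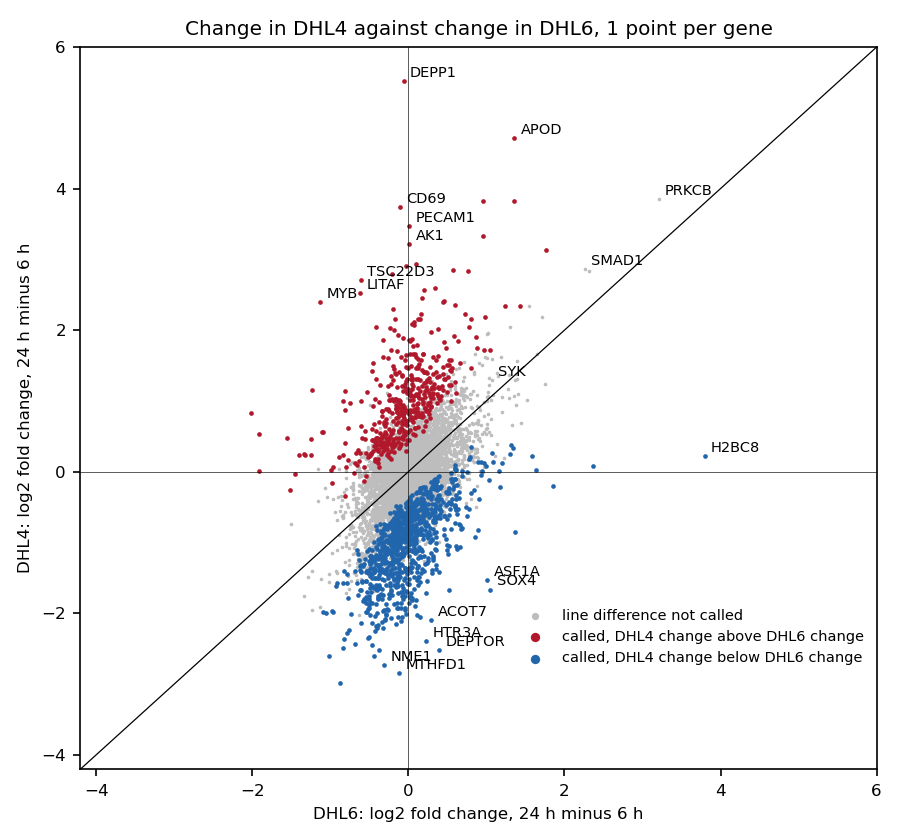
Log2 fold change at 24 h minus 6 h in DHL4 (y axis) against that in DHL6 (x axis) for 12165 genes, with the diagonal of equal change. Genes with a called difference between the lines are red (454, DHL4 change above) or blue (912, DHL4 change below), and DEPP1 lies farthest above the diagonal and H2BC8 farthest below it.

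The difference between the lines was tested directly, as the change in DHL4 minus the change in DHL6. It was called for 1366 genes (11.2%), 454 with the DHL4 change above (3.73%) and 912 with it below (7.5%). Differences of at least 2-fold numbered 201 above (1.65%) and 370 below (3.04%). DEPP1 in DHL6 read 2.91, 2.92 and 2.98 at 24 h, against 2.89, 3.05 and 3.04 at 6 h, at the floor throughout, and the line difference was 5.58 ± 0.41 (adjusted p = 1.16e-09). CD69 (3.85), PECAM1 (3.47), APOD (3.35) and AK1 (3.20) followed. MYB, a transcription factor of immature blood cells, rose by 2.40 in DHL4 and fell by 1.13 in DHL6 (line difference 3.53 ± 0.33), and the other MYB probe set, near the floor in DHL4 at -0.08, was not called there. TSC22D3 (2.70 in DHL4, -0.61 in DHL6) and LITAF, a lysosomal targeting protein (2.52 in DHL4, -0.62 in DHL6), were likewise called in opposite directions.

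In the other direction, H2BC8, a histone H2B gene, lay near the floor in DHL4, at 3.47, 3.31 and 2.91 at 24 h, against 3.14, 2.83 and 3.07 at 6 h (0.22, not called). In DHL6 it read 7.28, 7.23 and 7.24 at 24 h, against 3.33, 3.65 and 3.36 at 6 h, a rise of 3.80, and the line difference was -3.58 ± 0.48. SOX4, a transcription factor, fell by 1.67 ± 0.23 in DHL4 and rose by 1.05 in DHL6, and ASF1A, a histone chaperone, fell by 1.53 ± 0.26 in DHL4 and rose by 1.01 in DHL6. Of their further probe sets, 1 of 4 for SOX4 and 0 of 2 for ASF1A were called in DHL4. DEPTOR (-2.92), MTHFD1 (-2.72), HTR3A (-2.62), NME1 (-2.42) and ACOT7, an acyl-CoA thioesterase (-2.39), fell in DHL4 and were not called in DHL6.

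Genes of dividing cells differed between the lines. The line difference was called with the DHL4 change below for 36 of 39 mitosis genes and 30 of 43 replication genes, against 7.5% of all genes, and above for 0 of either. In DHL6, 4 of the 39 mitosis genes and 8 of the 43 replication genes fell, against 2.53% of all genes in that line. The difference was also below for 16 of 22 nucleotide synthesis genes, 24 of 35 oxidative phosphorylation genes, 20 of 31 proteasome genes and 12 of 14 chaperonin genes. For ribosome biogenesis 12 of 39 were below and 2 above, and in DHL6 15 of those 39 fell. NF-kB genes went the other way between the lines, with the DHL4 change above for 9 of 24 and below for 0. Over all genes the shares were 3.73% above and 7.5% below. There CD83 (0.84 in DHL4, -2.01 in DHL6), TNFAIP3 (1.15 in DHL4, -1.23 in DHL6), CD40 (1.00 in DHL4, -0.84 in DHL6) and NFKBIA (1.12 in DHL4, -0.54 in DHL6) were called in opposite directions. For receptor signalling genes the difference was above for 7 of 33 and below for 0, against the same shares of all genes.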

How the data were processed

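RNA levels of 29 arrays of DHL4 and DHL6 were used as the log2 values the authors deposited, made with RMA per the submitters' processing notes. RMA shares strength between probes and compresses low values; which arrays were normalized together is not given in the sources used here. Scanner files were not used here. Of 22277 probe sets, 19724 had 1 gene symbol in the platform annotation, 568 several, 1923 none and 62 were controls, and the probe set with the highest mean over all arrays stood for each of 12165 genes. Groups were taken from the sample titles. Limma 3.58.1 (R 4.3.3, lmFit and eBayes) fitted 10 group means over all arrays, so that all groups share 1 estimate of the spread, and p-values were adjusted by Benjamini-Hochberg over all genes, with calls below 0.05. It was tested on simulated data. Contrasts were 24 h minus 6 h of R406 in DHL4, the same in DHL6, and their difference. Named genes are the 15 largest called rises and falls, up to 6 called members of each list by absolute change, the 8 largest line differences each way and 16 set genes. Members and gene lists were chosen with earlier results of these data known. Alternatives covered scaling, dim genes, probe sets, arrays in the fit, variance prior, array weights, a replicate block, single arrays left out and a size threshold. Promoter sequences came from RefSeq, GRCh38.p14, and 9711 genes had one.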

Additional observations from a re-analysis of the deposited data

Results flagged for a closer look

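The change between 6 h and 24 h of R406 differed between DHL4 and DHL6 for 1366 of 12165 genes, tested as an interaction contrast in limma (adjusted p below 0.05). The largest differences with the DHL4 change above the DHL6 change were 5.58 for DEPP1, 3.85 for CD69, 3.53 for MYB, 3.47 for PECAM1, 3.35 for APOD, 3.31 for TSC22D3, 3.20 for AK1 and 3.14 for LITAF, in log2 units. With the DHL4 change below, they were -3.58 for H2BC8, -2.92 for DEPTOR, -2.72 for MTHFD1, -2.72 for SOX4, -2.62 for HTR3A, -2.54 for ASF1A, -2.42 for NME1 and -2.39 for ACOT7.

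Outside the genes compared, the rRNA control probe sets stood above their 6 h level on the DHL4 24 h arrays. The 18S probe sets averaged 11.05 at 24 h and 9.60 at 6 h, and the 28S probe sets 8.0 at 24 h and 7.08 at 6 h. Across the other 26 arrays the 28S mean ranged from 6.79 to 8.19 and the 18S mean from 7.99 to 11.7. The DHL4 24 h values thus lie inside the range of the series, but above that of the other DHL4 arrays. Their 18S mean was at least 10.83, against at most 10.48 on the other DHL4 arrays. Their 28S mean was at least 7.92, against at most 7.33.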

How the results depend on the processing

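The number of genes called in DHL4, 2712, lay between 2220 and 3423 under the alternatives of scaling, dim-gene filter, arrays in the fit, variance prior, array weights and probe set mean. The 2220 were called among only the 3897 genes with a mean level of 5 or more, so that count is not out of 12165. Testing every probe set on its own gave 4367 calls, 1799 higher and 2568 lower, because more features are tested. Centring on genes with a mean level of 5 or more, chosen after seeing the data, also gave 1799 higher. A 2-fold threshold left 871 genes, 308 higher and 563 lower, and 571 line differences. Leaving out 1 array at a time gave 2310 to 2886 calls in DHL4, 868 to 1146 higher and 1435 to 1740 lower, and 1118 to 1347 line differences. With the replicate number as a block 2659 genes were called, 1035 higher and 1624 lower, and 1320 line differences. Same-numbered arrays of 24 h and 6 h deviated together at r between -0.03 and 0.02 in DHL4 and between -0.11 and 0.17 in DHL6, so the numbers were not taken as a pairing. Of 303 named genes, 35 lost the call under some alternative, most often SQLE, SPRED2, SDF2L1 and ACSL1. SPRED2, an ERK pathway inhibitor that fell by 0.53, stood at 0.0028 with the mean of all its probe sets, and the cause was not tested. The 16 named line differences kept direction and call throughout. The list medians that changed sign under some scaling were those of death-promoting BCL2 family, fatty acid, G1, immediate early, NRF2, PI3 kinase, plasma cell and polyamine genes. Levels near the floor limit what can be read from dim genes.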

Other observations

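Among probe sets without a gene symbol, 145 were called higher and 144 lower at 24 h against 6 h in DHL4, which is 50.2% higher, against 1581 higher and 2349 lower (40.2% higher) among probe sets with 1 symbol. The difference between these shares was not tested, and no other scaling was run for the probe sets without a symbol. Of 1205 called genes with more than 1 probe set, 636 had another probe set called the same way and 31 one called the opposite way. TAF1D, WIPF1, SLA and SQLE are among those 31.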
